A study of Mus musculus with 2 samples.

Results

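Dendritic cell homing chemokines and receptors are described here through 8 genes, which are Ccl17, Ccl22 and Cxcl16 among the ligands and Ccr7, Ccr4, Cxcr6, Cxcr4 and S1pr1 among the receptors. They were chosen by symbol, each matched 1 row in both count matrices, and they are 8 of the 32285 genes listed. Cells came from the central nervous system of C57BL/6 mice in which EAE, a widely used mouse model of multiple sclerosis, had been induced with MOG peptide in complete Freund's adjuvant and pertussis toxin. Mononuclear cells were recovered on day 15, pooled within a genotype and sorted as MHC class II-positive and CD11c-positive. WT and Stat4fl/flCD11cCre mice gave 1 library each, and in the second Cre is driven by the promoter of CD11c, an integrin of dendritic cells that other myeloid and lymphoid cells can also carry. With 1 library of pooled mice per genotype no difference has a replicate check, and every interval below covers counting error only.

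Homing is run by pairs of ligands and receptors. CCR7 leads dendritic cells that have matured out of a tissue towards the lymph node, along CCL19 and CCL21. CCL17 and CCL22 are made by dendritic cells and macrophages and are read by CCR4 on helper and regulatory T cells. CXCL16 is a membrane-bound chemokine of macrophages and dendritic cells that is read by CXCR6 on activated and tissue T cells. CXCR4 reads CXCL12 and retains cells in marrow and barrier sites, and S1PR1 reads sphingosine 1-phosphate and lets lymphocytes leave tissues.

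The genes lie on 5 chromosomes of GRCm38, and all are protein-coding in GENCODE. Ccl22 (chr8:94745590-94751699, plus strand) and Ccl17 (chr8:94810453-94812036, plus strand) are neighbours, 58753 bases apart. Ccr4 (chr9:114490316-114504916, minus strand) and Cxcr6 (chr9:123806475-123811760, plus strand) share chromosome 9, and Cxcl16 (chr11:70453983-70459984, minus strand) and Ccr7 (chr11:99144196-99155077, minus strand) share chromosome 11. Cxcr4 is at chr1:128588199-128592293 on the minus strand and S1pr1 at chr3:115710433-115715072 on the minus strand.

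Promoter windows from RefSeq on GRCm38.p6 matched 5 of the 8 genes (Ccl17, Ccl22, Ccr4, Cxcr6 and Cxcr4, not Ccr7, Cxcl16 and S1pr1). The 250 bases before the RefSeq start site are printed for the 2 ligands of CCR4 and for Ccr4. These are the chemokine axis whose dendritic cell and T cell sides are compared below. RefSeq and GENCODE starts differ for Ccr4 and Ccl22. The Ccr4 window lies inside the GENCODE span given above, and the Ccl22 window ends inside that of its gene. Capitals mark TTCNNNGAA and TTCNNNNGAA, palindromic motifs of the STAT type that read the same on both strands.
Ccl17 (chr8:94810203-94810452, plus strand): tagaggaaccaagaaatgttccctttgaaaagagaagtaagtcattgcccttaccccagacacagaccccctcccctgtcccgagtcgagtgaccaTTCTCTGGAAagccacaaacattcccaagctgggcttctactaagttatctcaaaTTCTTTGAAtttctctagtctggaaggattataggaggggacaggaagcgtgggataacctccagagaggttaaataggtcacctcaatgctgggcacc
Ccl22 (chr8:94745434-94745683, plus strand): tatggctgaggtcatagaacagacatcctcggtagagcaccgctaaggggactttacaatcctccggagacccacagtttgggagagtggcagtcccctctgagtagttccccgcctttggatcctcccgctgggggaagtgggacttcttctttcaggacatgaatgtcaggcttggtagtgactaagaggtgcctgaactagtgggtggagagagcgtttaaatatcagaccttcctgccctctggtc
Ccr4 (chr9:114496545-114496794, minus strand): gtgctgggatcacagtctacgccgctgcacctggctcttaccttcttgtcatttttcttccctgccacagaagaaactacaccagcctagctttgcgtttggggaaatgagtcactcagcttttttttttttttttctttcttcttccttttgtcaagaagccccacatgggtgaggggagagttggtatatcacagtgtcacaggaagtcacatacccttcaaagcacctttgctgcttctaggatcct
The Ccl17 window held 1 match to each, TTCTTTGAA starting 99 bases and TTCTCTGGAA starting 154 bases before the start site, which do not overlap. No match was found in the other 4 windows. TTCNNNGAA occurred in 7.02% and TTCNNNNGAA in 5.85% of all 32851 windows of this length. These 2 motifs were picked for display after 11 had been searched on both strands of the 5 windows. Of the other 9, GGGNNNNNCC matched Ccl22 (45.8% of all windows), TGANTCA matched Ccr4 (6.75%), GGGCGG matched Cxcr4 (32.7%), CACCC matched Ccl22, Ccr4 and Cxcr4 (52.0%), GGAAGT matched Ccl22 and Ccr4 (19.7%), and TGTGGT matched Cxcr6 (14.0%). GGGNNTTTCC, CACGTG and ACGTG matched none of the 5 and occurred in 1.41%, 6.02% and 16.6% of all windows. With 55 combinations of motif and window searched, a match is a description of letters and says nothing of binding.

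After filtering, 13298 WT and 12305 Stat4fl/flCD11cCre barcodes were kept, with medians of 6440.5 and 6878 UMIs (unique molecular identifiers, each 1 counted RNA molecule), and the libraries shared 43 barcodes. Cells were placed by marker genes into 17 gates, of which 16 were compared, and a barcode with markers of 2 or more lineages was left out of every gate. Such barcodes numbered 2512 and 1796 and had medians of 15996 and 17253 UMIs. Of 11 lists of further markers, 10 were highest in their own gate in both libraries. The exception was the cDC2 list (Sirpa, Itgam, Irf4, H2-DMb2), at a summed 391 and 433 CPM in the cDC2 gate. It was higher in both libraries in microglia (1104 and 1343), Arg1 macrophages (649 and 669) and neutrophils (576 and 588). In WT it was also higher in B cells (537) and monocytes (487). The monocyte list reached 4536 and 3907 CPM in the cDC2 gate, against 6377 and 6923 in monocytes. The name cDC2 here therefore means only a cell with Flt3 or Zbtb46 together with Cd209a, Mgl2 or Clec10a. The gates held 128 and 71 cDC1 (cross-presenting dendritic cells), 176 and 186 cDC2 and 85 and 76 plasmacytoid dendritic cells. Cells on the edge of a gate were common, and 264 WT and 211 Stat4fl/flCD11cCre barcodes carried exactly the 2 cDC1 markers needed. Among the antibody tags, CD317 had a median of 171 and 195 in plasmacytoid dendritic cells and at most 108 elsewhere. The XCR1 tag did not set cDC1 apart, with medians of 29 and 73 in cDC1, 11 and 25 in CD4 T cells and 48 and 86 in Arg1 macrophages. Median depth was 7346 and 9779 UMIs in cDC2, 4954 and 5219 in microglia and 4696 and 5837 in CD4 T cells. T cells, natural killer (NK) cells and neutrophils were present although the sort was for dendritic cell markers. Stat4 itself was at 54.0 and 53.8 CPM (its share of the UMIs of the gate, scaled to 1000000) in cDC1 and cDC2 together. The labels do not say which exons are floxed, so reads from the 3' end do not check the deletion.

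**Figure D1:**
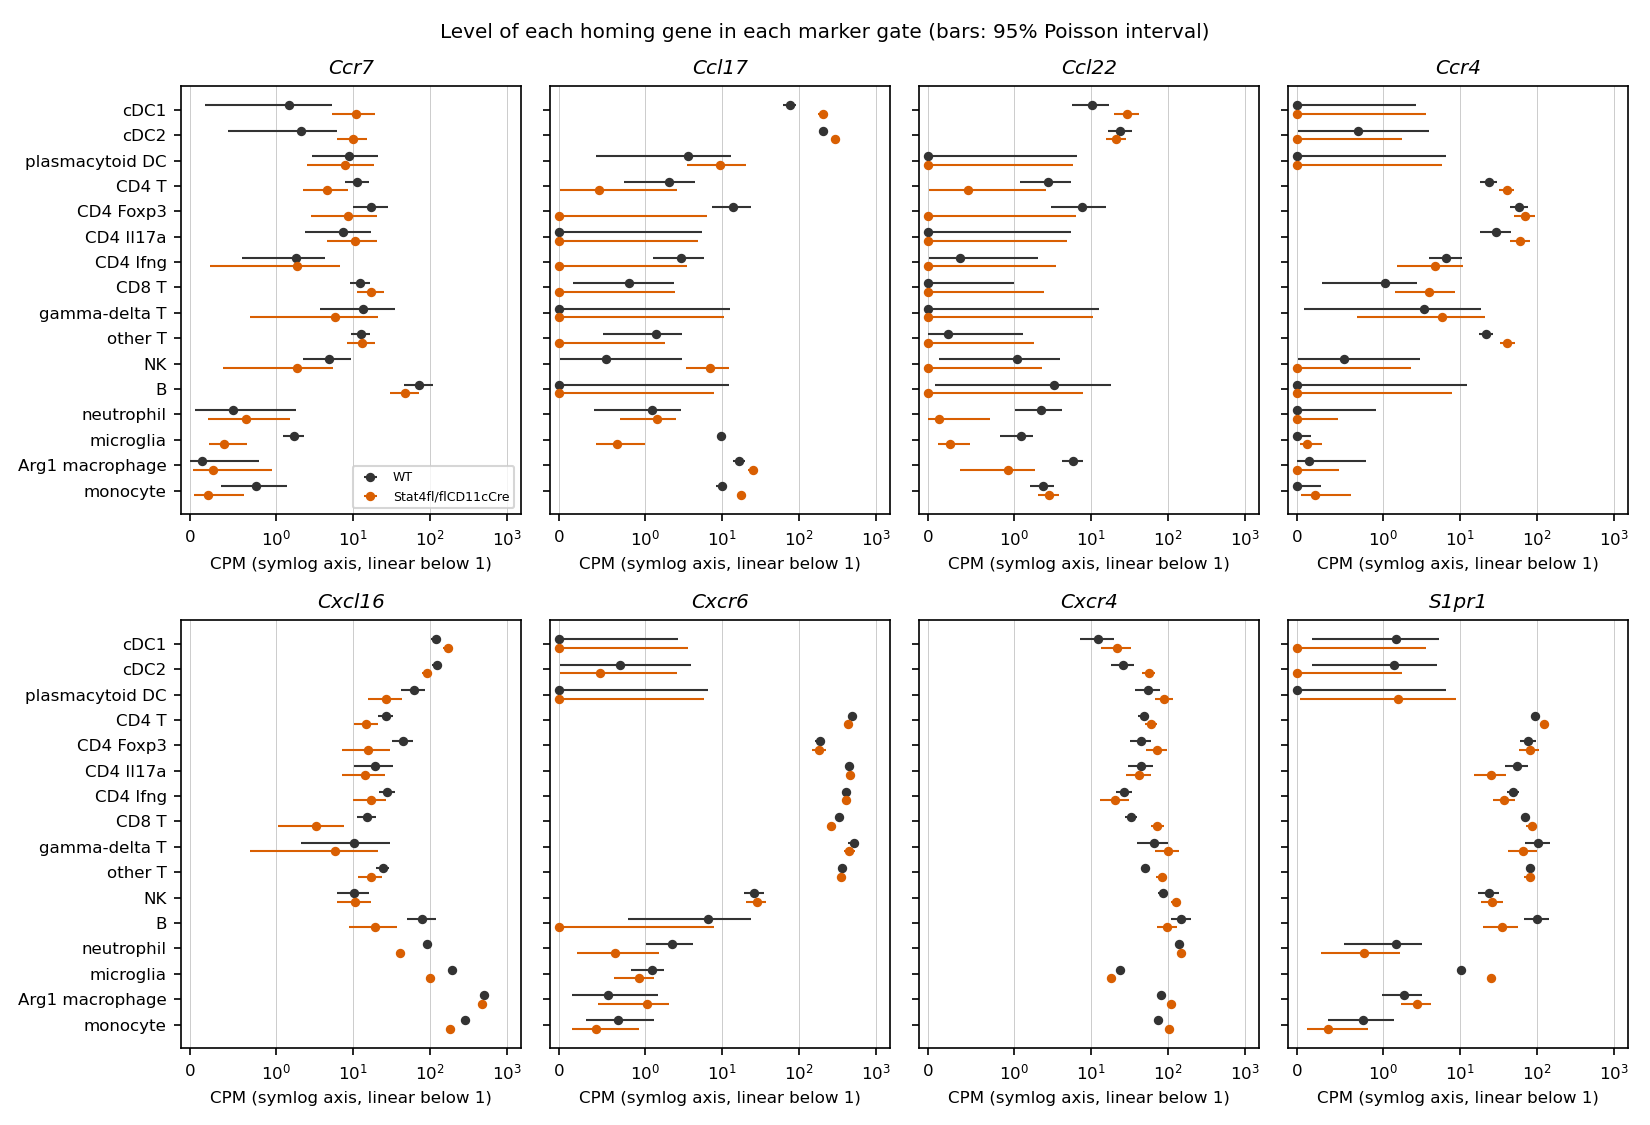
Level of each of the 8 genes (CPM, symlog axis, linear below 1) in 16 marker gates, WT in black and Stat4fl/flCD11cCre in orange, with exact Poisson 95% intervals. Cxcr6 and Ccr4 lie mainly in the T cell gates, S1pr1 in lymphocytes and microglia, Ccl17 is highest in cDC2 and Cxcl16 in Arg1 macrophages, where it is at 497 and 476 CPM.

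Across the 16 gates, 59 of the 128 combinations of gene and gate had at least 50 UMIs over both libraries. A ratio was called where it passed 1.5-fold and its exact interval lay beyond 1. In Stat4fl/flCD11cCre, 12 combinations were higher (20.3%) and 10 lower (16.9%), against 4.24% and 5.18% of all combinations of gene and gate, or 3.63% and 4.79% without the small B gate. The share of cells with a UMI, after each cell was thinned to 2500 UMIs, lay on the same side in 11 of the 12 and 9 of the 10. Its intervals were apart in 2 of the 12 (Cxcr4 in CD8 T cells, S1pr1 in microglia) and in 3 of the 10 (Cxcl16 in neutrophils, microglia and monocytes). In 4 of the 12 and 6 of the 10, the 5 cells richest in the gene held over 50% of its UMIs in the library where it was higher, so those differences rest on a few cells.

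**Figure D2:**
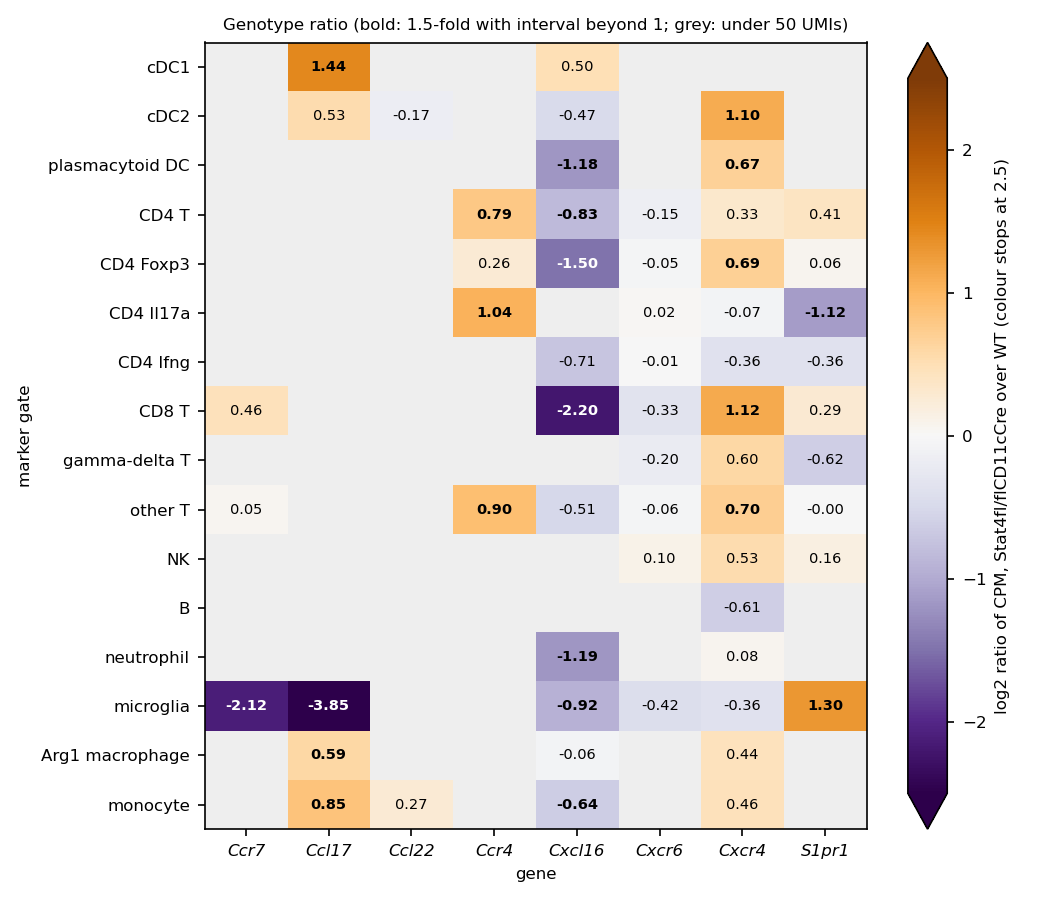
The log2 ratio of CPM, Stat4fl/flCD11cCre over WT, for each gene and gate with at least 50 UMIs, with called values in bold, uncalled ones in plain type and combinations under 50 UMIs in grey. Cxcl16 is lower in 7 gates, Cxcr4 is higher in 5 and none of the 9 values of Cxcr6 is called.

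Ccl17 RNA was made by a small share of dendritic cells, and that share was alike in value in both genotypes. Among cDC1 and cDC2 together, a Ccl17 UMI was found in 36 of 304 cells of WT (11.8%) and in 31 of 257 of Stat4fl/flCD11cCre (12.1%). After thinning the shares were 8.0% (5.19 to 11.7) and 8.20% (5.15 to 12.3), while T cells, which should lack the gene, were at 0.401% and at 0 of 1072 cells, which allows up to 0.280%. The summed level nevertheless went from 141 to 265 CPM (log2 ratio 0.91, 0.73 to 1.09), where 3.88% of genes were called higher. In WT the richest cell held 73 UMIs, its counterpart in Stat4fl/flCD11cCre held 235, and the 5 richest held 53.1% and 72.3% of all Ccl17 UMIs of these gates. The libraries thus differed in how much Ccl17 the richest few cells held, while the shares of cells with it lay within each other's intervals.

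The 2 gates gave unequal values. Beside them, the mature DC gate, too small to compare, held 27 Ccl17 UMIs in 2 WT cells and 7 in 4 cells of Stat4fl/flCD11cCre. In cDC2, the highest of the 16 compared gates in both libraries, the Ccl17 level was 204 and 294 CPM, a log2 ratio of 0.53 (0.32 to 0.73) that was not called. In cDC1 it was 76.2 and 206 CPM, a called log2 ratio of 1.44 (1.09 to 1.79) against a background of 3.07% of genes called higher in this gate. The 5 richest cells held 87.4% and 99.0% of these cDC1 UMIs, the thinned shares were 4.76% and 5.63%, and requiring 1 marker more for each gate turned the log2 ratio to -1.85. With barcodes of several lineages kept it was 0.33 and not called. The 4 Stat4fl/flCD11cCre cDC1 with a Ccl17 UMI after thinning had a median of 29 XCR1 tags, against 77 in those without. Cd209a, a cDC2 gate marker, was at 295 against 21.8 CPM. In WT, the 6 such cells had 40 tags against 28, and Cd209a at 0 against 8.64 CPM. The direction in cDC1 is therefore not settled by these cells.

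Outside dendritic cells the Ccl17 level was low, but many of its UMIs lay there. The myeloid dendritic cell gates held 19.8% and 41.5% of all Ccl17 UMIs and barcodes with several lineages 43.6% and 28.4%. Microglia held 10.8% and 1.20%, Arg1 macrophages 5.50% and 9.45%, and monocytes 6.16% and 12.6%. In microglia its level was 9.85 CPM in WT and 0.68 in Stat4fl/flCD11cCre (log2 ratio -3.85, -4.52 to -3.24), where 9.84% of genes were called lower. The 228 WT UMIs came from 27 of 3455 cells, 1 cell held 106 of them and 5 held 81.1%. Arg1 macrophages (16.7 and 25.2 CPM, log2 ratio 0.59) and monocytes (9.95 and 17.96 CPM, log2 ratio 0.85) were called higher, beside 1.51% and 3.88% of genes, and in monocytes the thinned share was 0.872% and 0.801%, on the other side of the level. In Arg1 macrophages and monocytes of Stat4fl/flCD11cCre the 5 richest cells held 85.2% and 83.3% of the Ccl17 UMIs. With 1 marker more the value in monocytes turned to -0.87. The call in Arg1 macrophages ended under a stricter cell filter (0.58) and with barcodes of several lineages kept (0.26).

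Ccl22, the other ligand of CCR4, was in the 16 compared gates of WT highest in cDC2, at 24.2 CPM, and was at 21.5 CPM there in Stat4fl/flCD11cCre (log2 ratio -0.17, -0.84 to 0.52, not called). In cDC1 it was at 10.4 and 29.7 CPM on 14 and 30 UMIs, under the minimum for a ratio. The mature DC gate, too small to compare, held 42 UMIs in 2 WT cells and 13 in 4 cells of Stat4fl/flCD11cCre. Of its UMIs, 61.9% and 58.1% lay in barcodes with several lineages, against 18.9% and 14.6% of barcodes. It was found with Ccl17 in the same cells. Of thinned cDC1 and cDC2 cells with a Ccl17 UMI, 3 of 24 and 7 of 21 also had a Ccl22 UMI, against 3 of 276 and 1 of 235 cells without. Across 31 gate and library points Ccl17 was the gene most like Ccl22 (r = 0.84), as a description over points that share libraries.

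Costimulatory and maturation genes, which dendritic cells switch on to prime T cells, gave mixed values in cDC2 with Ccl17. In WT, Cd40 (95.3 CPM with and 77.5 without Ccl17) and Cd80 (72.9 and 43.2) lay higher in cells with Ccl17, while Cd83 (95.3 and 187), Cd86 (196 and 326) and Relb (33.6 and 67.7) lay lower. In Stat4fl/flCD11cCre each of them lay higher, with Cd40 at 143 and 41.7 CPM, Cd80 at 123 and 50.1, Cd83 at 323 and 217, Cd86 at 456 and 331 and Relb at 148 and 51.7. Mgl2, a lectin of one cDC2 subset and a gate marker, was at 566 and 100 CPM in WT, and at 783 and 244 CPM in Stat4fl/flCD11cCre. Cd209a, another gate marker, went the other way, at 247 and 676 CPM in WT and at 476 and 650 CPM in Stat4fl/flCD11cCre. These are sums over 18 and 17 cells with Ccl17.

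Ccr4, the receptor of both ligands, was a gene of T cells, whose gates held 73.6% and 77.9% of its UMIs. It was highest in the CD4 Foxp3 gate (regulatory T cells), at 58.7 and 70.0 CPM, and next in the CD4 Il17a gate, at 29.6 and 61.0 CPM. Neighbouring T cell gates overlapped down to the CD4 Ifng gate, at 6.70 and 4.74 CPM, whose interval lay below those of the CD4 Foxp3, CD4 Il17a, CD4 T and other T gates. No cDC1 and no plasmacytoid dendritic cell had a Ccr4 UMI in either library, which allows a UMI in up to 2.38% and 4.23% of thinned cDC1 and 3.75% and 3.95% of thinned plasmacytoid dendritic cells. Such limits are on cells with a UMI at 2500 UMIs per cell and not on cells that express the gene.

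Ccr4 was higher in the pooled CD4 gates of the Stat4fl/flCD11cCre library. Its level in all CD4 gates together was 22.3 CPM in WT and 39.4 in Stat4fl/flCD11cCre (log2 ratio 0.82, 0.50 to 1.14), where 1.41% of genes were called higher. The share of cells with a UMI was 11.5% and 20.2%, and after thinning 5.17% (3.86 to 6.76) and 9.79% (7.40 to 12.6), intervals that do not overlap. By gate, the log2 ratio was 0.79 (0.31 to 1.27) in CD4 T cells without the named cytokines or Foxp3, 1.04 (0.26 to 1.88) in the CD4 Il17a gate and 0.90 (0.46 to 1.35) in other T cells, where 2.37%, 3.45% and 3% of genes were called higher. It was 0.26 (-0.37 to 0.87) and not called in the CD4 Foxp3 gate. When thinned, the value in other T cells was 0.61 (-0.08 to 1.29) and not called. In each of the gates called, the thinned shares had overlapping intervals. The mix of CD4 gates also differed between the libraries. The CD4 Ifng gate, where Ccr4 was low, held 339 and 119 cells, and the CD4 T gate 503 and 297. The CD4 Foxp3 gate held 101 and 56, and the CD4 Il17a gate 73 and 68. The part of this mix in the pooled value, and whether the gates differ from each other, were not tested.

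Of 11 other chemokine receptors, 7 were measured in all CD4 cells, and 1 was higher and 2 lower. Ccr6, a receptor of T helper 17 cells, went from 12.99 to 31.5 CPM (log2 ratio 1.28). Ccr9 was among the lower genes, at 6.98 and 3.99 CPM, and 3.26% of all genes were lower there. By gate, 3 of 4 measured were higher in the CD4 Il17a gate (3.45% of all genes) and 2 of 4 lower in the CD4 Foxp3 gate (4.2%). In the CD4 T gate 1 of 6 was higher and 2 lower, beside 2.37% and 3.13% of all genes. In the CD4 Ifng gate 1 of 5 was lower, beside 3.7%. The gene most like Ccr4 across gates was Tnfrsf4 (r = 0.95), which encodes the costimulatory receptor OX40.

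**Figure D3:**
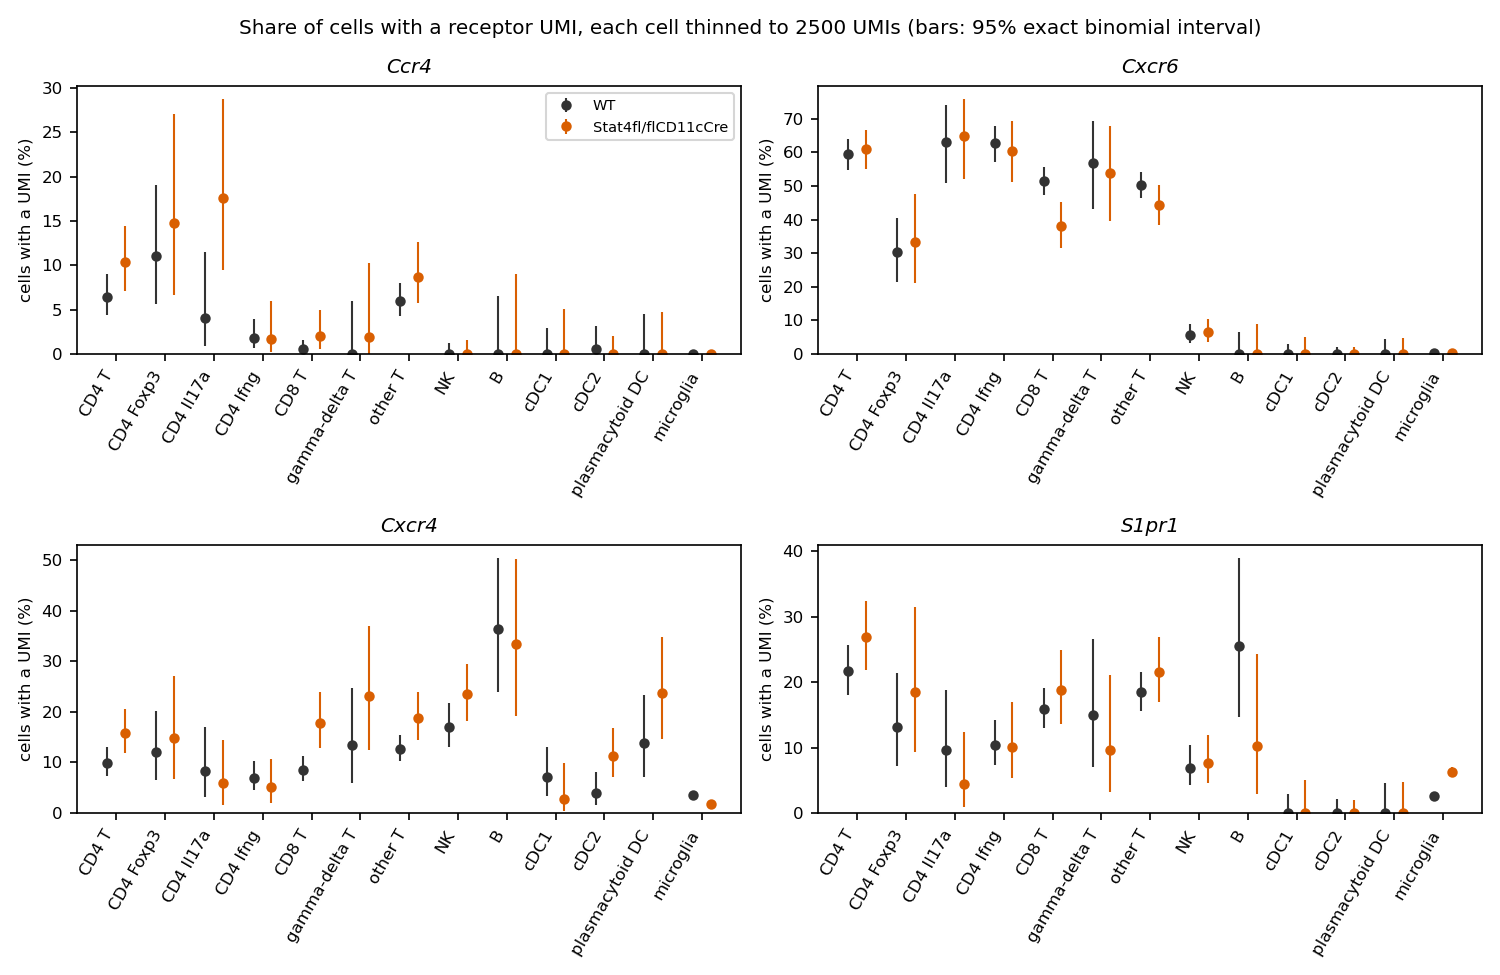
Share of cells with a UMI of Ccr4, Cxcr6, Cxcr4 or S1pr1 (percent, each cell thinned to 2500 UMIs) by gate and library, with exact binomial 95% intervals. In CD8 T cells Cxcr4 is at 8.56% and 17.8% and Cxcr6 at 51.5% and 38.1%, in WT and Stat4fl/flCD11cCre.

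Cxcl16 was highest in Arg1 macrophages among the compared gates of both libraries. In the compared gates of WT its order was Arg1 macrophages (497 CPM), monocytes (283), microglia (192), then cDC2 (125) and cDC1 (121), whose intervals overlap. In Stat4fl/flCD11cCre the order was Arg1 macrophages (476 CPM), monocytes (182), cDC1 (170), microglia (101) and cDC2 (90.3). There the intervals of monocytes and cDC1 overlapped, as did those of microglia and cDC2, and cDC1 lay above microglia. The mature DC gate, too small to compare, was at 580 CPM on 11 UMIs in 2 WT cells and at 346 CPM on 12 UMIs in 4 cells of Stat4fl/flCD11cCre. Microglia held 17.5% and 19.9% of all Cxcl16 UMIs, and cDC1 and cDC2 each held between 0.644% and 1.06%. T cells were at 24.0 and 13.3 CPM with 2.85% and 1.87% of thinned cells, a level read here as background.

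Cxcl16 was lower in Stat4fl/flCD11cCre in microglia, monocytes and neutrophils. Microglia went from 192 to 101 CPM (log2 ratio -0.92, -0.99 to -0.86), and the share of thinned cells with a UMI from 28.7% to 16.0% (unthinned 46.0% and 30.7%). Monocytes went from 283 to 182 CPM (log2 ratio -0.64, -0.71 to -0.56; 39.2% and 28.3% of thinned cells), and neutrophils from 92.3 to 40.5 CPM (log2 ratio -1.19, -1.41 to -0.96; 12.8% and 4.88%). All genes called lower were 9.84% of those measured in microglia, 5.44% in monocytes and 7.87% in neutrophils. The call in monocytes ended when cells were thinned (-0.51) and with the mean of per-cell CPM (-0.52). The microglia gate also shifted in its markers, with the Arg1 macrophage list at 10568 and 6133 CPM, the monocyte list at 1265 and 835, the microglia list at 8996 and 12083, and an H2-Aa UMI in 77.0% and 24.6% of cells. Their part in the microglia values of Cxcl16, Ccl17, Ccr7 and S1pr1 was not tested.

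Arg1 macrophages kept a like level, at 497 and 476 CPM (log2 ratio -0.06, -0.13 to 0.00). In dendritic cells the values lay on both sides of 0 and were not called, at 0.50 (0.18 to 0.82) in cDC1 and -0.47 (-0.77 to -0.16) in cDC2. Calls in plasmacytoid dendritic cells and in 3 T cell gates (CD4 T, CD4 Foxp3 and CD8 T) lay at 61.2 CPM or less, and the 5 richest cells held between 48.2% and 88.2% of the WT UMIs. In plasmacytoid dendritic cells the thinned share lay on the other side of the level, at 5.0% and 6.58%. Without the highest 10% of Scrublet scores, which rank likely doublets, none of the 4 reached 50 UMIs and so none could be called, with log2 ratios from -3.72 to -1.299. Genes called lower made up 3.23%, 3.13%, 4.2% and 2.92% of those measured in these 4 gates. All T cells together, read above as background, went the same way, and the part of free RNA in these calls was not tested.

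Cxcr6, the receptor of CXCL16, was found in every T cell gate. Its level in the T cell gates of WT ran from 189 CPM in the CD4 Foxp3 gate to 516 in gamma-delta T cells, and in Stat4fl/flCD11cCre from 182 to 454 CPM. The CD4 Foxp3 gate was the lowest T cell gate in both libraries, and NK cells followed at 26.5 and 28.3 CPM. Microglia, which should lack it, were at 1.25 and 0.94 CPM, and no cDC1 had a UMI, which allows up to 2.38% and 4.23% of thinned cells.

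Cxcr6 was not called in any of the 9 gates measured, with log2 ratios from -0.42 to 0.10. In all T cells it was at 382 and 365 CPM (log2 ratio -0.07, -0.13 to -0.00). This interval lies within 1.5-fold but covers counting error only, so it sets no limit on a difference between genotypes. The lowest ratio among the T cell gates was that of CD8 T cells, at 329 and 261 CPM (log2 ratio -0.33, -0.50 to -0.17). Their share of thinned cells with a UMI was 51.5% (47.3 to 55.7) and 38.1% (31.4 to 45.2), although the unthinned shares were 67.3% and 64.7%. The genes most like Cxcr6 were Acsbg1, Bcl11b (a T cell identity factor) and Icos (a T cell costimulator), with r of 0.98 each.

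Cxcr4 was the most widespread of the 8, measured in 15 gates. Neutrophils were at 139 and 146 CPM, and B cells at 149 and 97.8. In Stat4fl/flCD11cCre it was higher in 5 gates and lower in none, and 11 of 15 ratios lay above 0. CD8 T cells went from 33.4 to 72.8 CPM (log2 ratio 1.12, 0.74 to 1.51), where 3.35% of genes were called higher, with a UMI in 8.56% (6.38 to 11.2) and 17.8% (12.8 to 23.8) of thinned cells and in 17.01% and 34.3% of all cells. In cDC2 it went from 26.3 to 56.4 CPM (log2 ratio 1.10, 0.56 to 1.68), where 4.85% of genes were called higher, and the thinned shares of 4.02% and 11.4% had overlapping intervals.

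The other 3 calls of Cxcr4 were smaller. They were 0.70 (0.40 to 1.00) in other T cells, 0.67 (0.02 to 1.36) in plasmacytoid dendritic cells and 0.69 (0.03 to 1.35) in the CD4 Foxp3 gate, which was at -0.032 when thinned. The last 2 were not called without the highest 10% of Scrublet scores (0.70 and 0.54) or with 1 marker more (0.53 and 0.48). With barcodes of several lineages kept, the only 1 of the 5 calls to remain was that in CD8 T cells. Genes called higher were 3%, 4.01% and 2.93% of those measured there. Cxcr4 RNA is known to move when cells are handled. Of 13 genes of the handling response, 7 were higher and 2 lower in plasmacytoid dendritic cells, 5 higher and 3 lower in the CD4 Foxp3 gate, 0 higher and 2 lower in cDC2 and in other T cells, and 0 higher and 3 lower in CD8 T cells. All genes called lower were 3.23% in plasmacytoid dendritic cells, 4.2% in the CD4 Foxp3 gate, 3.63% in cDC2, 3.14% in other T cells and 2.92% in CD8 T cells. Their part in the Cxcr4 values was not tested.

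S1pr1 was found in lymphocytes and in microglia. All T cells held 53.2% and 30.0% of its UMIs and microglia 11.3% and 39.7%. B cells were at 99.5 and 34.8 CPM and CD4 T cells were at 93.4 and 124 CPM (log2 ratio 0.41, 0.15 to 0.66, not called), CD8 T cells at 69.8 and 85.4 CPM, and NK cells at 23.7 and 26.5 CPM. No thinned cDC1, cDC2 or plasmacytoid dendritic cell had an S1pr1 UMI in either library, which allows a UMI in up to 4.23% of cells in the smallest of these groups. The gene most like it across gates was Pced1b (r = 0.96).

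S1pr1 was called in 2 gates, in opposite directions. Microglia went from 10.4 to 25.6 CPM (log2 ratio 1.30, 1.09 to 1.51), with a UMI in 2.65% and 6.28% of thinned and 5.90% and 13.8% of all cells, where 7.51% of genes were called higher. The Stat4fl/flCD11cCre level was near that of NK cells. The other myeloid gates were lower, with monocytes at 0.766 and 0.358 CPM, neutrophils at 1.51 and 0.782 and Arg1 macrophages at 1.87 and 2.79. Beside this, the Arg1 macrophage list went from 10568 to 6133 CPM in the microglia gate and the microglia list from 8996 to 12083. The CD4 Il17a gate went from 54.8 to 25.2 CPM (log2 ratio -1.12, -2.00 to -0.29) on 37 and 19 UMIs, where 5.33% of genes were called lower, the 5 richest cells held 59.5% of the WT UMIs, and the thinned shares of 9.59% and 4.41% had overlapping intervals. Without the highest 10% of Scrublet scores it had 49 UMIs (log2 ratio -1.08) and could not be called.

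Among 7 genes of recirculating lymphocytes, 4 were higher and 0 lower in CD8 T cells, where 3.35% of all genes were higher, and 0 were called in all CD4 cells, where 1.41% were. In gamma-delta T cells the list went the other way, with 0 higher and 3 lower of 5 measured, beside 7.89% of all genes. In microglia 3 of 6 were higher (7.51%). By CD4 gate, 1 of 7 was higher in CD4 T (2.37%) and CD4 Foxp3 (2.93%). In the CD4 Il17a gate 1 of 5 was higher (3.45%) and 1 lower (5.33%). Higher were 1 of 7 in NK cells (2.97%) and 1 of 5 in neutrophils (2.63%) and plasmacytoid dendritic cells (4.01%). In monocytes 1 of 5 was higher (3.88%) and 1 lower (5.44%). In B cells 2 of 4 were higher (31%) and 2 lower (22.4%). The higher genes in CD8 T cells included Klf2, the factor that drives S1pr1 (104 to 179 CPM), Tcf7 (66.3 to 101) and Klf3 (49.4 to 76.1). The median log2 ratio of the list in CD8 T cells was 0.60, beside 0.04 for all genes measured there. Of 7 residence genes in CD8 T cells 2 were higher, Rgs1 (155 to 238 CPM) and Rgs2 (39.1 to 62.9), both regulators of receptor signalling. In other T cells 2 of 7 were higher (3% of all genes). Lower were 2 of 6 in CD4 T cells (3.13%), 2 of 4 in gamma-delta T cells (7.89%), 3 of 6 in neutrophils (7.87%) and 2 of 7 in microglia (9.84%). Of 6 measured, 1 each was higher in the CD4 Ifng gate (2.03% of all genes), Arg1 macrophages (1.51%) and monocytes (3.88%). In plasmacytoid dendritic cells 1 of 4 was higher (4.01%). In cDC2 1 of 5 was lower (3.63%), and in B cells 1 of 2 (22.4%). Of 5 measured in cDC1, 1 was higher (3.07%) and 1 lower (3.6%).

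Ccr7, a receptor of recirculating T cells, was rarer in T cells with Cxcr6 than in those without. In thinned T cells it was found in 1.24% (0.694 to 2.03) of WT cells with Cxcr6 and 4.55% (3.37 to 6.01) of those without, and in 0.921% (0.300 to 2.14) and 4.16% (2.62 to 6.23) in Stat4fl/flCD11cCre. S1pr1 was found in 16.5% and 16.9% of WT T cells with and without Cxcr6, and in 16.0% and 22.9% in Stat4fl/flCD11cCre. In CD8 T cells of Stat4fl/flCD11cCre those shares were 9.09% (3.73 to 17.8) and 24.8% (17.5 to 33.3), and in WT 13.5% and 18.4%.

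Ccr7 was rare, with 800 UMIs in the WT library and 619 in Stat4fl/flCD11cCre. Of the compared gates, B cells had the highest level, at 73.0 and 47.8 CPM, and all T cells were at 10.6 and 9.45 CPM (log2 ratio -0.16, -0.57 to 0.23). The B gate was small, and 53.4% of all genes in it passed the call, so little can be read from a ratio there. The 1 ratio measured in it was that of Cxcr4 (-0.61, -1.24 to 0.02), which was not called.

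Most Ccr7 UMIs lay outside every gate. Barcodes with several lineages held 520 (65.0%) of them in WT and 381 (61.6%) in Stat4fl/flCD11cCre. Barcodes with at least 5 Ccr7 UMIs numbered 36 and 27 and held 50% and 65.4% of the UMIs. Of these, 27 and 18 carried markers of several lineages, with medians of 39270 and 30440 UMIs, and 27 and 18 carried microglia genes. Barcodes with at least 3 of 6 mature dendritic cell genes (Fscn1, Cacnb3 and others) numbered 66 and 41, of which 2 and 4 carried no other lineage. Whether such barcodes are doublets was not tested beyond the Scrublet score, whose highest 10% took 28 of the 66 and 22 of the 41.

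**Figure D4:**
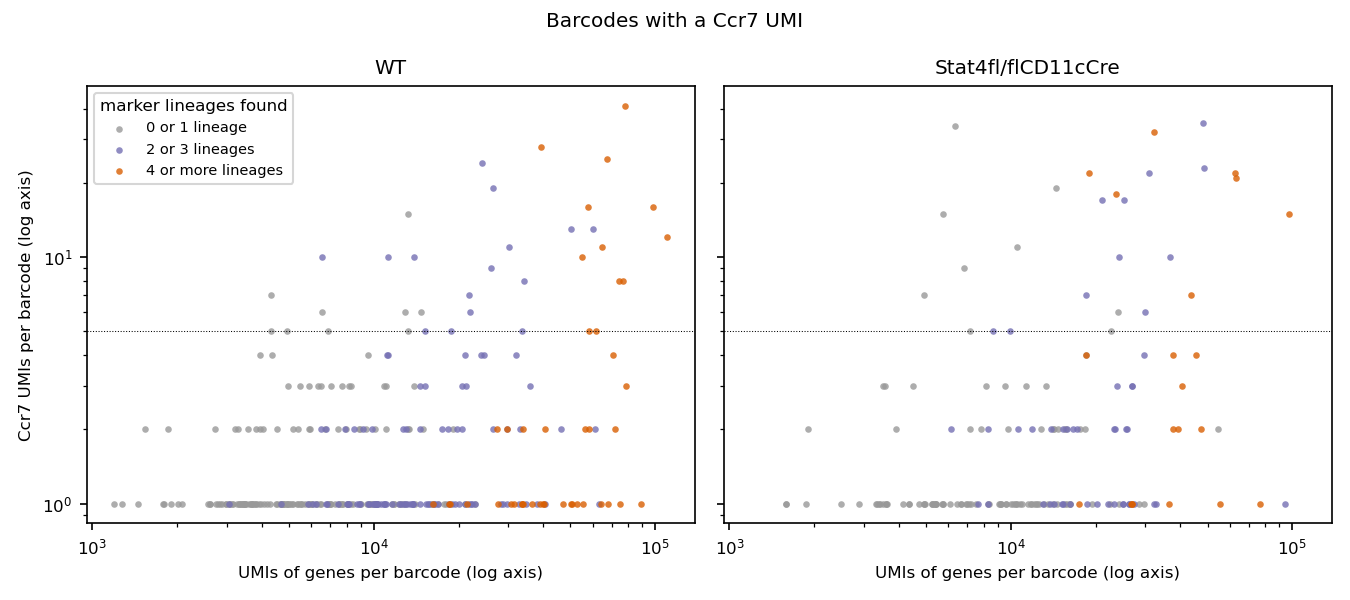
Ccr7 UMIs against all UMIs of each barcode with a Ccr7 UMI (both axes log), by library, coloured by how many marker lineages it carries, with the dotted line at 5. Of the 36 WT and 27 Stat4fl/flCD11cCre barcodes on or above the line, 27 and 18 carry 2 or more lineages.

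In the myeloid dendritic cell gates (mature DC, cDC1 and cDC2) Ccr7 was at 12 UMIs in WT and 88 in Stat4fl/flCD11cCre, or 4.32 and 28.1 CPM. The log2 ratio was 2.70 (1.82 to 3.71), where 3.98% of genes were called higher. Of the 88 UMIs, 56 came from 4 mature dendritic cells and 93.2% from 5 cells, and the share of thinned cells with a UMI was 0.993% and 2.31%. With barcodes of several lineages kept, the log2 ratio was 0.30 (0.09 to 0.51), so its size rests on which barcodes are counted as dendritic cells. Of a list of 15 other genes found in mature dendritic cells, 14 were measured in cDC1 and cDC2 together. Of these 0 were higher and 2 lower (2.47% of all genes), Ccl5 (127 to 76.4 CPM) and Il12b (15.2 to 6.77 CPM). The list is not particular to dendritic cells. Its summed level was 1244 and 1317 CPM in cDC1 and cDC2, 10297 and 14210 in NK cells and 8782 and 9145 in CD8 T cells.

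In microglia Ccr7 was at 1.73 and 0.398 CPM (log2 ratio -2.12, -3.11 to -1.21). It came from few cells, and the 5 richest held 75.0% of the WT UMIs. The call ended with barcodes of several lineages kept (-0.53), and without the highest 10% of Scrublet scores 47 UMIs were left (-1.82), too few for a call. Of the 15 genes of the mature dendritic cell list, 8 were lower in microglia, among them Il12b (9.93 to 0.967 CPM) and Ccl5 (495 to 116 CPM). Ccl17 was also lower in this gate, as were 9.84% of all genes. In neutrophils 6 of 13 measured genes of the list were lower (7.87% of all genes), and in monocytes 4 of 14 (5.44%). Their part in the Ccr7 value was not tested.

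Among 18 partner genes of these axes (receptors, enzymes and proteases that act on the ligands), none was called in cDC1, cDC2 or all CD4 cells, where 7, 7 and 11 were measured and 6.66%, 8.48% and 4.67% of all genes were called in either direction. Of 12 measured in monocytes 2 were higher and 1 lower, beside 3.88% and 5.44% of all genes. Of 13 in microglia 1 was higher and 2 lower, beside 7.51% and 9.84%. In neutrophils 1 of 10 was higher (2.63% of all genes), in B cells 1 of 4 (31%). In the CD4 Il17a gate 1 of 6 was higher (3.45%), and in gamma-delta T cells 1 of 4 (6.36%). In NK cells 2 of 9 were higher, beside 2.97% of all genes. They were the sphingosine 1-phosphate receptors S1pr4 (36.9 to 66.8 CPM) and S1pr5 (22.0 to 40.3 CPM), the latter known for letting NK cells leave tissues.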

How the data were processed

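The chemistry was 10x Genomics 3', and the deposited matrices hold UMI counts by gene and barcode beside 5 antibody tags, per the file headers. Cell Ranger 7.0.0, STAR and mm10 are named in the submitters' processing notes. Barcodes with at least 500 genes, 1000 gene UMIs and under 10% mitochondrial UMIs were kept. Gates were set on marker UMIs. Barcodes with markers of several lineages were left out as possible doublets, and Scrublet (scanpy 1.11.5) served as an alternative. A level is the share of a gene among the gene UMIs of the gate, scaled to 1000000 (CPM), with an exact Poisson interval, and ratios have exact conditional binomial intervals at 95%. A ratio needed 50 UMIs over both libraries and 40 cells in each, a minimum set after it was seen that the B gate holds 42 cells. The B gate gave 1 measured ratio, which was not called. For shares, cells were thinned to 2500 UMIs and shallower cells left out (291 and 214 microglia, 235 and 254 neutrophils, 37 and 7 CD4 T cells). A share of 0 was given the limit that 3 counts allow. The ratio code was tested on simulated data. The 8 genes, the gates and the lists were chosen with earlier results of these data known. The 3 genes most like each member (Pearson r of log2(CPM + 1), among 10174 genes with at least 500 UMIs) and up to 4 list members per gate past 1.5-fold were eligible to be named. Ccl19 and Ccl21a, each on several rows, were not used. Some list members that passed the call are counted but not reported here by name. Gene positions are from GENCODE vM21. Alternatives covered doublets, gates, filters, scaling, weighting, depth, fold and minimum.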

Additional observations from a re-analysis of the deposited data

Results flagged for a closer look

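Ccl17 was called higher in cDC1 of Stat4fl/flCD11cCre (log2 ratio 1.44) and lower in microglia (-3.85), the opposite way. The cDC1 value turned to -1.85 with 1 marker more per gate. With barcodes of several lineages kept it was 0.33 and not called, so its direction is not settled. The 5 richest cells held 87.4% and 99.0% of the cDC1 UMIs and 81.1% of the WT microglia UMIs. The difference between the gates was not tested, since there was 1 library per genotype.

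S1pr1 was higher in microglia (log2 ratio 1.30) and lower in the CD4 Il17a gate (-1.12). The second value rests on 37 and 19 UMIs, and the difference between the gates was not tested.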

How the results depend on the processing

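Of 472 comparisons of a gene's ratio in a gate with an alternative, 412 stayed within the interval of the reported ratio, 57 moved outside it and 3 reversed. The reversals were Ccl17 in cDC1 (-1.85) and in monocytes (-0.87) with 1 marker more per gate, and Cxcr4 in the CD4 Foxp3 gate (-0.032) with cells thinned. The 10 lower combinations became 5 without the highest 10% of Scrublet scores. Of the 10, 4 were kept (Ccl17 in microglia and Cxcl16 in neutrophils, microglia and monocytes), and the other 6 kept their direction but fell under 50 UMIs (Ccr7 in microglia, S1pr1 in the CD4 Il17a gate, and Cxcl16 in plasmacytoid dendritic cells, CD4 T, CD4 Foxp3 and CD8 T cells). The 10 became 3 after thinning, where only 32 combinations could be measured. The 12 higher combinations became 5 at a fold of 2, and the list calls went from 47 higher and 70 lower to 15 and 34. These list calls are added up over 5 lists and 16 gates. At 1.5-fold, 53.4% of all genes were called in the B gate and 17.3% in microglia. The mature dendritic cell list alone gave 0 higher and 6 lower calls in B cells, and 0 and 8 in microglia. No share of all genes at a fold of 2 is given beside the list calls, so no excess in either direction is read from them. Ccr7 in the myeloid dendritic cell gates went from 2.70 to 1.44 (0.72 to 2.20) with 1 marker more. A further 3 alternatives were added after seeing the data. With barcodes of several lineages kept, lower combinations rose to 26 of 98 measured, 7 of them among the 10, higher ones numbered 14, and Ccr7 fell to 0.30. Without barcodes shared by the libraries all 22 calls were kept. Without the mature DC gate Ccr7 was at 2.51 (1.14 to 4.23) on 5 and 32 UMIs, under the 50 needed for a call. Apart from these, the cause of a move was not tested. The mean of per-cell CPM has no interval and was called by fold alone. No paired analysis was possible because each genotype has 1 library and the labels carry no replicate number, so no replicate could be left out either. Ccr7 and Ccl22 were too shallow for a ratio in most gates (3 and 2 of 16 measured).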
